A study of Mus musculus with 6 samples.

Results

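The white adipocyte genes are 33 genes that mark the fat cell of white adipose tissue, and they were compared here between 3 mammary tumors and 3 control mammary glands. The members were listed by name, each was matched to array probe sets annotated to that 1 symbol, and the brightest of these by mean log2 signal stands for the gene. A probe set was found for 30 of the 33, and all 30 were among the 12518 genes tested on the arrays. *Cfd*, which encodes the secreted protease adipsin, *Plin1*, which encodes the perilipin of the large fat droplet, and *Acsl1*, an acyl-CoA synthetase, were matched to no such probe set and are not analysed here.

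The tumors had acinar, gland-like histology and had grown in *K14-cre*; *ApcCKO/+* mice. In these mice the promoter of keratin 14 drives Cre recombinase in mammary progenitor cells of the epithelium, where it deletes part of 1 conditional allele of the tumor suppressor *Apc*. All 3 tumors carried the deleted allele together with a truncating mutation of the remaining allele. The control glands came from age-matched *cre*-negative mice, whose *Apc* genotype and age are not given in the sources used here, while the tumors came from mice of mixed genetic background. Total RNA of each sample was hybridized to 1 Affymetrix mouse array, whose signal per probe set is a linear brightness scaled by the authors to a target of 500. Because RNA came from whole tissue, fewer adipocytes, less RNA per adipocyte and a changed part of other cells cannot be told apart in any value given here.

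White adipocytes take up fatty acids and glucose, join the fatty acids to glycerol as triglyceride and store it in a large droplet whose protein coat controls its breakdown. The nuclear receptor PPARγ and the transcription factor C/EBPα drive the formation of these cells and keep many of their genes on. In the mammary gland the epithelial ducts lie embedded in a pad of such cells, which also release the hormones leptin and adiponectin.

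The promoters of the 2 factors and of both hormones are shown first. They are the 250 bases before the start site, on the plus strand, from RefSeq on the GRCm38.p6 build, and capitals mark every match, on either strand, to the short motifs described after them. The stretches are chr6:115421816-115422065 for *Pparg* (1 of its 3 listed start sites), chr7:35119043-35119292 for *Cebpa*, chr6:29059971-29060220 for *Lep* and chr16:23146286-23146535 for *Adipoq*.
Pparg: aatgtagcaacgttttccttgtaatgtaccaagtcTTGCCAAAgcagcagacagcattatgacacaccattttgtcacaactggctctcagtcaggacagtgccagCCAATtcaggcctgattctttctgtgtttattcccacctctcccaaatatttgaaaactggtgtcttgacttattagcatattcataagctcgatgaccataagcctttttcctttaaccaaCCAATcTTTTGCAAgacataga
Cebpa: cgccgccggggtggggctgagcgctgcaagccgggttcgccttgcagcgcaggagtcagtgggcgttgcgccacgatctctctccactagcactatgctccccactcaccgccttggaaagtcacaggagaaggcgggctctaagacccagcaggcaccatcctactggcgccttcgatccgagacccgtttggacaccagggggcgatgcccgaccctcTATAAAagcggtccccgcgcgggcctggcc
Lep: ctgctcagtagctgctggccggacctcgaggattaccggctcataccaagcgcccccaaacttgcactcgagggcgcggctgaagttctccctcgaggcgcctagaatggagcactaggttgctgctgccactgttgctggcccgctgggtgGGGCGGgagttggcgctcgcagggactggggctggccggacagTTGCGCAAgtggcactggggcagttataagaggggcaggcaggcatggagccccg
Adipoq: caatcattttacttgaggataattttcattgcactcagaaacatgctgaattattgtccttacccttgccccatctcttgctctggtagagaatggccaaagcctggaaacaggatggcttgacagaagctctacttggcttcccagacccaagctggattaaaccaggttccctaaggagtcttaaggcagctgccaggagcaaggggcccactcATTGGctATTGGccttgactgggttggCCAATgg
In the *Pparg* stretch the C/EBP core motif TTGCNNAA was matched 215 and 16 bases before the start site and a CCAAT box 144 and 22 bases before it. The stretches of its other listed start sites, not shown, held no C/EBP match. Each of them held GGGCGG and the PPAR recognition core AGGTCA. The *Lep* stretch held the full C/EBP palindrome TTGCGCAA, which is also a match to the core, 55 bases before the start site, and a GC box, GGGCGG, 98 bases before it. In *Cebpa* a TATA box, TATAAA, was matched 30 bases before the start site. *Adipoq* held CCAAT 34, 27 and 7 bases before its start site.

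Both strands were searched. RefSeq listed 27 promoters for 20 of the 30 tested members, and 32851 promoters in all. The single PPAR recognition core AGGTCA was held by 14.8% of the members' promoters and by 14% of all, in the members *Cd36*, *Lpin1* and *Pparg*. The PPAR motif DR1, a direct repeat of that core, was found in 0 of the members' 27 promoters and in 0.0335% of all. The C/EBP core was held by 14.8% of the members' promoters against 9.56% of all, in *Lep*, *Rbp4*, *Cidec* and *Pparg*, and the full palindrome by 3.70% against 0.164%, which for the members is the 1 match in *Lep*. For the general promoter motifs the shares were 11.1% against 12.4% for TATAAA, 29.6% against 33.8% for CCAAT and 51.9% against 32.7% for GGGCGG. These shares describe letters in a short window, and enhancers farther away were not searched.

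Of the 30 genes tested, 29 were lower in tumors and 1, *Lpin1*, did not pass the test. The fits used limma on log2 signals with Benjamini-Hochberg adjustment over the 12518 genes, and a gene was called at an adjusted p under 0.05. Of all genes tested, 16.8% were called lower and 16.3% higher. No member was called higher by limma, 0 of 30 were higher at an unadjusted p under 0.05, and the methods' t-test also gave 0. The median log2 fold change, tumor minus control, was -5.18 over the 30 members and 0.07 over all genes tested. Every tumor lay below every control gland for all 30 members, as for 23.1% of all genes. All members were well above the signal filter on the control arrays, so they were tested through the group in which they are high, and these counts describe the members without supporting more than that.

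**Figure D1:**
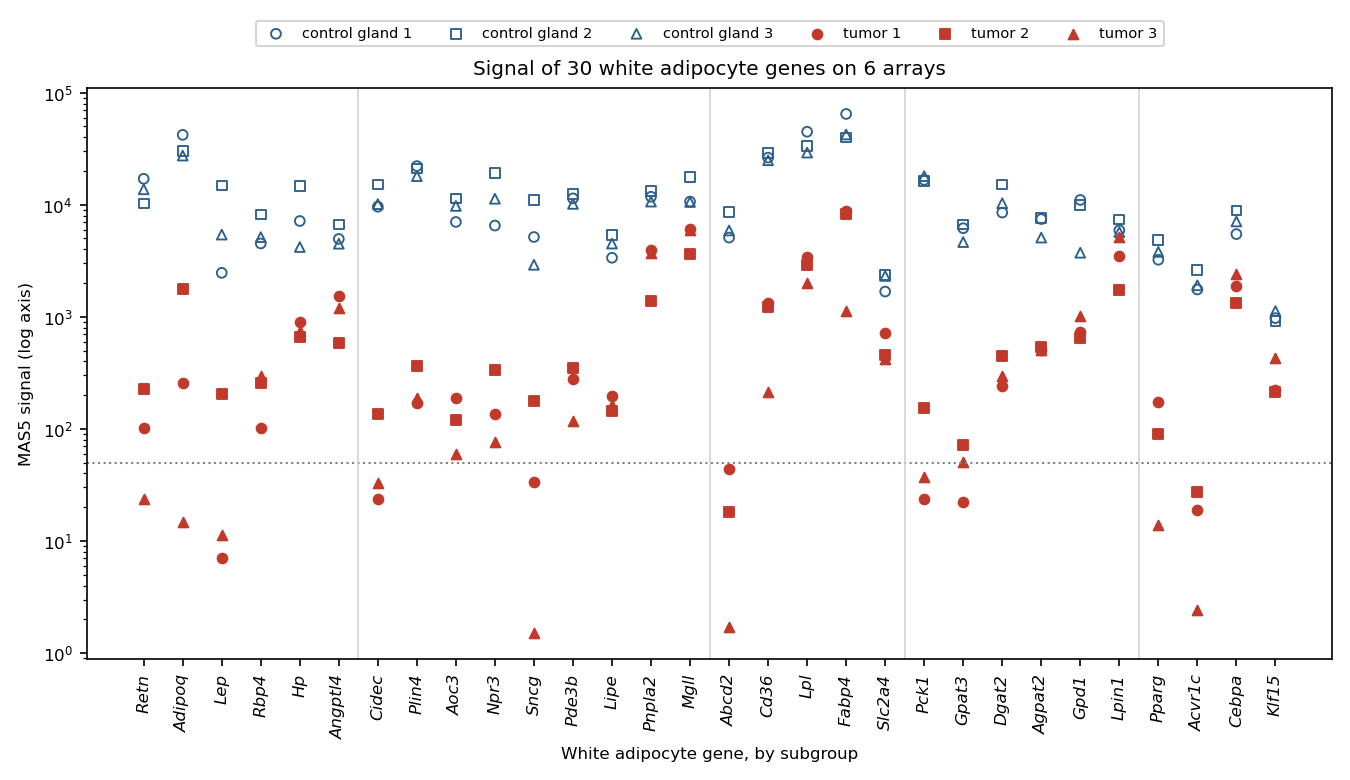
Signal (log axis) of the 30 white adipocyte genes on each of the 6 arrays, ordered by subgroup and then by log2 fold change. Open blue symbols are the 3 control glands, filled red symbols the 3 tumors, and the dotted line is a signal of 50, below which values were set to 50 for the tests. For each gene the 3 red symbols lie below the 3 blue ones, and the gap is narrowest for *Lpin1* and *Mgll*.

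The falls were not of 1 size. A fall of at least 16-fold was seen in 18 members, against 0.927% of all genes tested, and 11 members fell at least 64-fold. Falls of members with tumors below 50 are understated, so their order by size is not given. At the other end, *Mgll*, *Cebpa* and *Klf15* fell less than 4-fold, and so did the fitted value of *Lpin1*. The lowest control gland was at least 10 times the highest tumor in 18 members and at least 2 times in 28. The counts at 64-fold, 10 times and 2 times were not made over all genes, so they only describe the members.

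Among the adipokines and other secreted proteins all 6 genes tested fell, with a median log2 fold change of -5.52. Adiponectin, encoded by *Adipoq*, is a hormone made almost only by adipocytes. Its signal was 42044.7, 30145.2 and 27446.7 in control glands 1 to 3 and 256.2, 1772.1 and 14.8 in tumors 1 to 3. The control glands lay close together and far above the tumors, while tumor 2 stood well above the other tumors and tumor 3 was below 50. The log2 fold change was -6.85 (SE 1.12, n = 3 per group, adjusted p = 0.00418 by limma), and the highest tumor was at least 35.4 times the lowest.

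Resistin, encoded by *Retn*, had signals of 17043.9, 10260.7 and 13731.3 in control glands against 101.2, 228 and 23.5 in tumors. Its log2 fold change was -7.00 (SE 0.52, adjusted p = 0.000221 by limma). Tumor 3 was below 50 for both *Adipoq* and *Retn*, so their falls have no order. For leptin (*Lep*), the hormone that reports fat stores to the brain, the control glands gave 2467.5, 14817.6 and 5413.2 and the tumors 7.1, 205 and 11.2. The control glands differed from each other more for *Lep* than for any other member, 6.01-fold between highest and lowest, with control gland 2 the highest, and tumors 1 and 3 were below 50. Its log2 fold change was -6.19 (SE 0.77, adjusted p = 0.00144 by limma).

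The secreted proteins that are also made by the liver had smaller fitted falls than these hormones, though the differences between genes were not tested. *Rbp4*, the carrier of retinol, gave 4511, 8163.7 and 5138.4 in control glands against 102.8, 255 and 299.3 in tumors, which is -4.85 as a log2 fold change. Haptoglobin (*Hp*), an acute phase protein, gave 7161.5, 14635.8 and 4195.5 against 907, 660 and 744.1, a change of -3.32. *Angptl4*, an inhibitor of lipoprotein lipase, gave 4953.2, 6647.6 and 4488.3 against 1542.5, 587.4 and 1204.6. Its change of -2.36 (SE 0.38, adjusted p = 0.00393 by limma) was the smallest of the secreted proteins, and 20.7% of the control signal was left.

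The droplet coat and lipolysis genes were 9 of 9 lower, with a median log2 fold change of -6.17. *Cidec*, which fuses droplets into the large one of the white adipocyte, gave 9605.4, 15187.8 and 10132.4 in control glands against 23.5, 135.2 and 33.2 in tumors. *Plin4*, a coat protein of new droplets, gave 22117.4, 21055.3 and 18000.4 against 171, 365.7 and 190.1. For both genes the groups were far apart and tumor 2 was the highest tumor. *Cidec* fell by 7.35 on the log2 scale (SE 0.43, adjusted p = 0.000126 by limma) and kept at most 0.673% of its control signal. *Plin4* fell by 6.48 (SE 0.32, adjusted p = 0.000119).

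The 3 enzymes that remove the fatty acids of stored triglyceride one after another fell by very different amounts. *Pnpla2*, the first lipase, gave 11782.3, 13231.4 and 10661.7 in control glands against 3964.9, 1395.6 and 3739.5 in tumors. *Lipe*, the hormone-sensitive lipase of the second step, gave 3362.4, 5407 and 4501.6 against 198.3, 144.2 and 164. *Mgll*, the monoglyceride lipase of the last step, gave 10670.8, 17691.6 and 10580.5 against 6047.7, 3666.6 and 5979.8. Tumor 2 was the lowest tumor for all 3 enzymes. The share of the control signal left was 25.5% for *Pnpla2*, 3.82% for *Lipe* and 40.3% for *Mgll*, and the log2 fold changes were -2.11 (SE 0.41), -4.70 (SE 0.25) and -1.30 (SE 0.31). The call of *Mgll*, with an adjusted p of 0.0175 by limma, was the weakest among the 29. Its adjusted p was 0.0516 without tumor replicate 2 and between 0.0062 and 0.2 over all alternatives. Differences between the enzymes themselves were not tested.

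The other genes of this group fell at least 16-fold. *Pde3b*, the phosphodiesterase through which insulin restrains lipolysis, fell by 5.65 on the log2 scale. *Npr3*, the clearance receptor for natriuretic peptides, fell by 6.22 and *Aoc3*, an amine oxidase of the adipocyte surface, fell by 6.39. *Sncg*, γ-synuclein, gave 5154, 11055.2 and 2910.6 in control glands against 33.3, 176.7 and 1.5 in tumors, a change of -6.17. As with *Lep*, control gland 2 and tumor 2 were the highest of their groups.

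Among the genes of fatty acid and glucose uptake, 5 of 5 were lower, with a median log2 fold change of -3.70. *Abcd2*, a peroxisomal transporter of long fatty acids, gave 5093.3, 8601.5 and 5892.4 in control glands against 44.2, 18.1 and 1.7 in tumors. All 3 tumors were below 50, so the value is a bound, at least 127-fold lower (adjusted p = 5.3e-05 by limma). *Cd36*, the fatty acid translocase, gave 26333.8, 28798.3 and 24943.6 against 1339, 1219.4 and 212.5, a log2 fold change of -5.24 (SE 0.66). Tumor 3 held far less *Cd36* signal than the other tumors.

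The same was seen for *Fabp4*, the fatty acid carrier of the adipocyte cytoplasm, at 64573.8, 39781.5 and 42377.9 in control glands against 8863.6, 8254.8 and 1119.6 in tumors. Its log2 fold change was -3.46 (SE 0.76, adjusted p = 0.013 by limma). *Lpl*, the lipoprotein lipase that frees fatty acids from circulating lipoproteins, gave 44829.1, 33165.5 and 29198.9 against 3429.5, 2874.1 and 2002.9, a change of -3.70. *Slc2a4*, the insulin-responsive glucose transporter GLUT4, gave 1679.7, 2352.5 and 2315.4 against 717, 453.6 and 421.2. With -2.02 (SE 0.28, adjusted p = 0.00219 by limma) it fell least of this group.

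GLUT4 is also the glucose transporter of skeletal muscle, and the arrays differed widely in muscle transcripts. The summed signal of 10 muscle markers was 7679.7, 232518 and 79491.8 in control glands 1 to 3 and 41808.2, 2057.8 and 670.5 in tumors 1 to 3. *Slc2a4* was lowest in control gland 1, where the muscle sum of the controls was lowest. In control glands 2 and 3, whose muscle sums were far apart, it gave 2352.5 and 2315.4. Among the tumors it was highest in tumor 1, where the muscle sum was highest. Such an order was not particular to *Slc2a4*. Control gland 1 was the lowest control for 12 of the 30 members and tumor 1 the highest tumor for 11. The part of muscle in the *Slc2a4* values was not tested. Control replicate 2 and tumor replicate 1 had the highest muscle sum of each group. Without these arrays the log2 fold change was -2.17 for *Slc2a4* (adjusted p = 0.00785 by limma), -3.91 for *Lpl* and -5.65 for *Cd36*. The control glands kept, at 7679.7 and 79491.8, still had higher muscle sums than the tumors kept, at 2057.8 and 670.5. That fit therefore cannot tell how much of these falls is muscle. In that fit 28 members were lower, *Mgll* no longer passing at an adjusted p of 0.0515, and the median was -4.93.

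Of the 6 genes of glycerolipid synthesis 5 were lower, with a median of -4.40. *Pck1*, the enzyme that makes the glycerol backbone from small precursors in adipocytes, gave 16654.6, 16244.6 and 18000.5 in control glands against 23.6, 155 and 37.5 in tumors. Its control glands were closer together than those of any other member, with the highest 1.11 times the lowest, and tumors 1 and 3 were below 50. The log2 fold change of -7.86 (SE 0.44, adjusted p = 0.000126 by limma) rests on tumor values set to 50, and at most 0.501% of the control signal was left.

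*Gpat3*, which adds the first fatty acid to glycerol phosphate, gave 6173.3, 6659.3 and 4642.1 in control glands against 22.1, 72.4 and 50.7 in tumors, a change of -6.66 (SE 0.25). *Agpat2*, the enzyme of the next step, changed by -3.68 and kept 7.48%, 8.02% and 7.52% of its mean control signal in tumors 1 to 3, which lay close together. *Dgat2*, which adds the last fatty acid, changed by -5.12, and *Gpd1*, which makes glycerol phosphate from a glycolytic intermediate, by -3.24. *Lpin1*, the phosphatase between *Agpat2* and *Dgat2* in the pathway, which also acts as a coactivator of transcription, gave 5917, 7400.2 and 5706 in control glands against 3492.4, 1729.1 and 5160.2 in tumors. Tumor 3 lay close under the lowest control gland, and tumor 2 was far lower. The log2 fold change of *Lpin1* was -1.0 (SE 0.40, adjusted p = 0.0901 by limma), and without tumor replicate 3 it was -1.36 with an adjusted p of 0.0374.

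**Figure D2:**
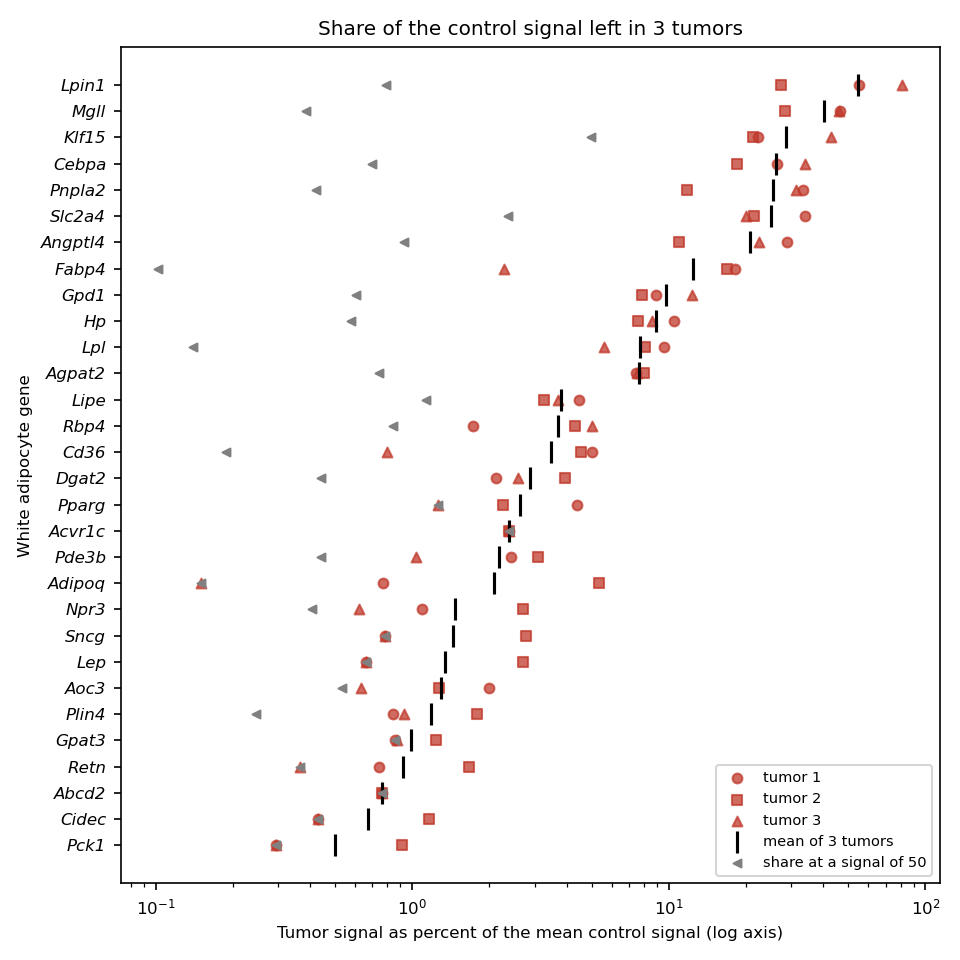
Share of the mean control signal left in each tumor (red symbols) and on average (black bars) for the 30 genes, on a log axis in percent. Grey triangles mark the share that a signal of 50 would give, the lowest that could be measured; *Pck1* kept at most 0.501% on average and *Lpin1* 54.6%, and tumor 2 is often the right-most point for the genes at the bottom and the left-most for those at the top.

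The 4 adipogenic regulators were all lower, and by unequal amounts. *Pparg*, which encodes PPARγ, gave 3228.5, 4871.1 and 3794 in control glands against 174.1, 89.2 and 14 in tumors. *Cebpa*, which encodes C/EBPα, gave 5468.6, 8892.2 and 7094.4 against 1889.4, 1317 and 2431.8. The tumors were ordered differently for these factors, with tumor 3 the lowest for *Pparg* and the highest for *Cebpa*. *Pparg* changed by -5.41 on the log2 scale (SE 0.44, adjusted p = 0.000315 by limma) and kept at most 2.64% of its control signal. *Cebpa* changed by -1.94 (SE 0.30, adjusted p = 0.00343) and kept 26.3%.

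*Klf15*, a factor that acts downstream of glucocorticoids and raises GLUT4, gave 973.2, 912.9 and 1124.9 in control glands against 223.9, 213.1 and 428.7 in tumors. Its change of -1.87 (SE 0.31, adjusted p = 0.00432 by limma) was the smallest of the regulators by the chosen probe sets. *Acvr1c*, the activin receptor ALK7 of mature adipocytes, gave 1753.2, 2602.8 and 1909 against 19, 27.1 and 2.4. With all tumors below 50, it was at least 41.2-fold lower by this probe set (adjusted p = 5.3e-05 by limma). A dimmer probe set of *Acvr1c*, with every tumor above 50, gave a log2 fold change of -1.84, with 27.9% of the control signal left. On that probe set a signal of 50 would be 14.1% of the control mean, so a larger fall could not be measured.

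Tumor 2 was not low or high throughout. It was the highest tumor for 12 of the 30 members, among them *Adipoq*, *Retn*, *Lep*, *Plin4*, *Cidec*, *Npr3*, *Sncg* and *Pck1*, and all 12 had fallen at least 4-fold. It was the lowest tumor for 9 members, among them all 4 that fell less than 4-fold, *Mgll*, *Lpin1*, *Cebpa* and *Klf15*. Tumor 3 was the lowest for 10 members and tumor 1 the highest for 11, including *Lpl*, *Cd36*, *Fabp4*, *Slc2a4* and *Pparg*. The median difference from the control mean over the 30 members was -4.92, -4.56 and -5.39 on the log2 scale in tumors 1, 2 and 3. In control glands, gland 2 was the highest for 22 members. Gland 1 was the highest for 6, *Adipoq*, *Retn*, *Plin4*, *Lpl*, *Fabp4* and *Gpd1*. The median ratio of the highest to the lowest array was 1.56 in control glands and 2.66 in tumors.

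Further probe sets read the same transcripts on the same arrays. The members had 57 probe sets, of which 27 had not been chosen for a gene, and 22 of these, for 13 genes, passed the filter. Of the 22, 20 were lower when all 22492 named probe sets were tested, where 15.2% were lower, and the other 2 also had negative log2 fold changes. These were a second probe set of *Lpin1* (-1.13, adjusted p = 0.11) and a dim one of *Gpd1* (-0.55, adjusted p = 0.0838). The size of the fall differed between probe sets of 1 gene. For *Fabp4* the brightest gave -3.46 and the others -6.53, -5.27 and -2.93, and for *Lpl* a second gave -4.98 beside -3.70. The fall of *Slc2a4* was -3.12 by its second probe set, and that of *Mgll* -1.61 and -1.72 by its others. In the other direction, dim probe sets of *Acvr1c* (-1.84), *Npr3* (-3.69) and *Pnpla2* (-0.90) gave smaller falls than the bright ones, which gave -5.36 for *Acvr1c* and -6.22 for *Npr3*. On these dim probe sets a signal of 50 would be 14.1%, 5.58% and 26.3% of the control mean. Falls beyond these shares could not be measured there, and for *Npr3* tumor 1 was below 50. A further probe set gave -5.00 for *Acvr1c*, with all tumors below 50, and another gave -5.65 for *Npr3*. The unchosen probe sets of *Abcd2* gave -6.33, -4.45 and, for a dim one, -1.85. All tumors were below 50 on each of these, so the values for *Abcd2* are bounds and do not show a smaller fall. The order of members by size of fall thus depends on the probe set. With probe sets prone to cross-hybridize removed, 28 of 29 members were lower, with a median of -5.24.

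**Figure D3:**
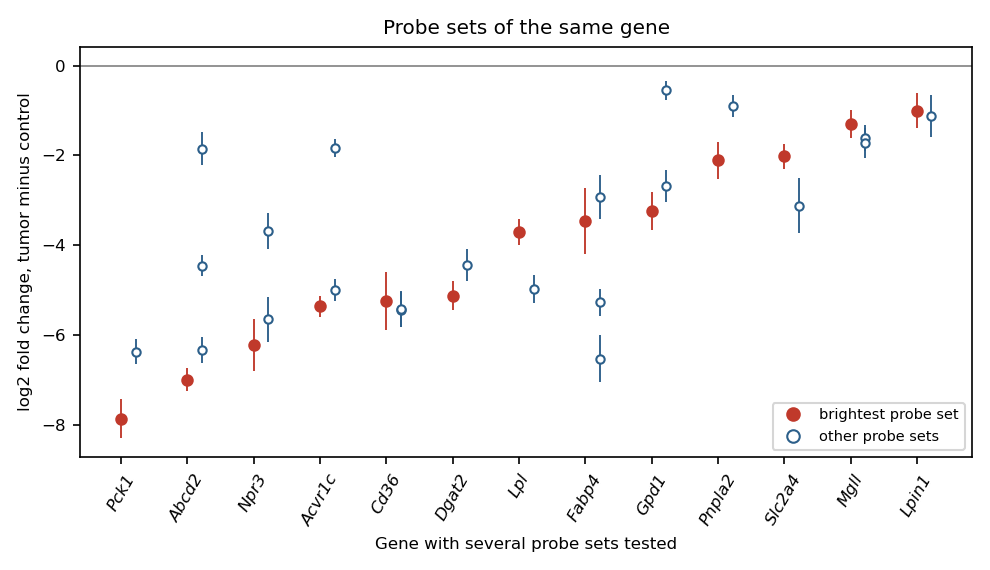
Log2 fold change, tumor minus control, with standard errors, for the 13 genes with several probe sets tested (3 arrays per group). Filled red points are the brightest probe set of each gene, open blue points the others. All lie below 0, and those of *Abcd2*, *Fabp4* and *Acvr1c* are spread widest. For *Abcd2* all tumors were below 50 on every probe set, so its points are bounds.

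Genes of the same pathways outside the list were read from the same fit. Of 45 other genes of fat storage and lipolysis, 39 were tested, of which 24 were lower, 5 higher and 10 did not pass, with a median log2 fold change of -1.36. Over all genes tested 16.8% were lower and 16.3% higher, so the 5 of 39 that were higher do not exceed the share of all genes. Among the largest falls were those of *Nnat*, neuronatin, at -6.75, of the carboxylesterases *Ces1d* at -6.26 and *Ces1f*, at least 72.2-fold lower with all tumors below 50, and of *Cidea*, the relative of *Cidec* typical of brown fat, at -5.02. *Agpat1* and *Acsl5* were furthest from passing, at 0.07 (adjusted p = 0.824) and 0.09 (adjusted p = 0.81) by limma. The 5 that were higher, and the genes compared with them here, were chosen after their values were seen.

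The values of these 5 are given as a description. *Plin3*, a droplet coat protein of many cell types, rose by 1.39 on the log2 scale with signals of 1401, 1506.4 and 1391.7 in control glands against 4070.5, 3772 and 3467.1 in tumors. *Plin2*, another droplet coat protein, gave 14541.8, 15257.9 and 10453.2 against 16324.6, 8455.7 and 23351.6, and the groups overlapped (0.16, adjusted p = 0.78 by limma). Among the partners of *Pnpla2*, its activator *Abhd5* rose by 1.11 (adjusted p = 0.0196) and its inhibitor *G0s2* by 1.35 (adjusted p = 0.0471). Both calls depended on single arrays. Without control replicate 1 the adjusted p was 0.0618 for *Abhd5* and 0.112 for *G0s2*, without control replicate 3 it was 0.0713 and 0.139, and without tumor replicate 3 it was 0.0552 and 0.134; *G0s2* also lost its call without tumor replicate 2, at 0.142. The acyl-CoA synthetases *Acsl4* and *Slc27a4* rose by 1.63 (adjusted p = 0.00282) and 2.40 (adjusted p = 0.00162). *Dgat1*, the other enzyme that completes triglyceride, changed by -2.0 where *Dgat2* changed by -5.12.

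Of 30 other regulators of adipogenesis, 27 were tested, of which 11 were lower, 4 higher and 12 did not pass, with a median of -0.65. The 4 of 27 that were higher are again no more than the 16.3% of all genes, while 16.8% of all genes were lower. The early B cell factors *Ebf1* and *Ebf2*, which act with PPARγ, changed by -4.92 and -3.61, and the zinc finger factors *Zfp467* and *Zfp423*, which commit cells to the lineage, by -2.94 and -2.59. *Med1*, a coactivator of PPARγ, was at 0.07 (adjusted p = 0.917) and *Egr2* at 0.10 (adjusted p = 0.808) by limma. The 4 that were higher, named after their values were seen, were *Stat5a* at 2.05, *Klf5* at 1.83, *Srebf1* at 1.70 and *Gata2* at 1.41, and *Klf5* alone of these also passed the methods' t-test at its threshold. *Stat5a*, *Klf5* and *Srebf1* are also known from epithelium, and *Gata2* is a factor that holds precursors back from becoming adipocytes. *Cebpb*, the early partner of *Cebpa*, gave 1937.7, 2319.1 and 1966.5 in control glands against 5200.8, 1921.6 and 4014.4 in tumors. Tumor 2 lay only just below the lowest control gland, near the control level, and the other tumors lay above all control glands. *Cebpb* did not pass (0.73, adjusted p = 0.17 by limma). Without tumor replicate 2 it was higher, at 1.14 with an adjusted p of 0.0224 by limma.

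**Figure D4:**
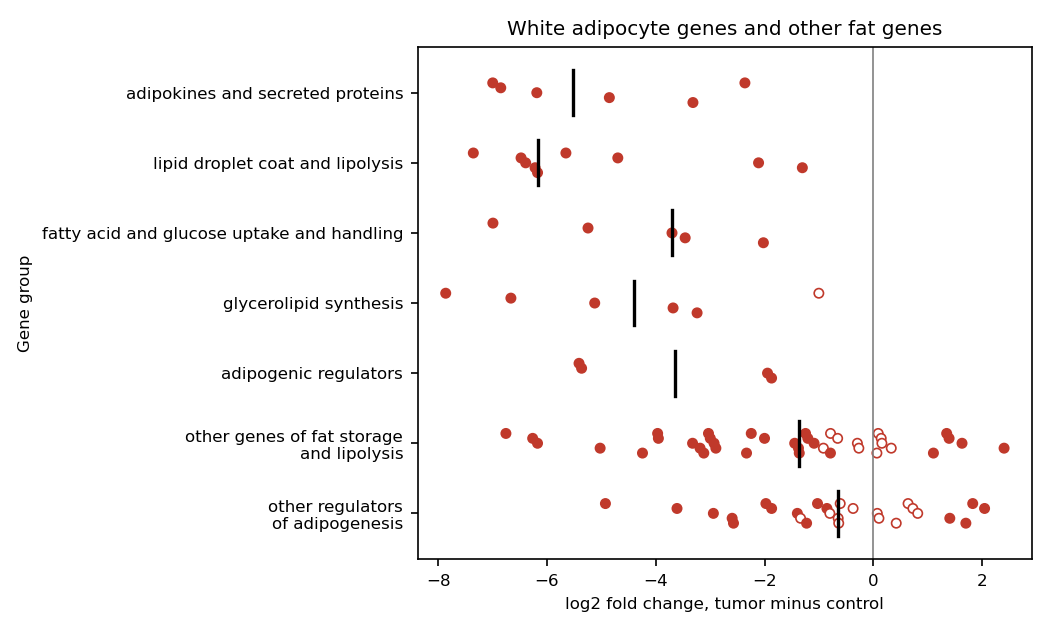
Log2 fold change, tumor minus control, of each gene in the 5 subgroups of white adipocyte genes and in 2 lists of other fat genes. Filled points passed the test at an adjusted p under 0.05, open points did not, and black bars are medians, which run from -6.17 for the droplet and lipolysis genes to -0.65 for the other regulators; points to the right of 0 occur in the lower 2 rows.

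Markers of other cell types also differed between the groups, but not all in the direction of the members. Beside the counts of these lists, 16.8% of all genes tested were called lower and 16.3% higher. For epithelium 9 of 12 markers were higher, and their summed signal was 13113.9 to 29670.4 in control glands and 86116.3 to 104777 in tumors. For fibroblasts and matrix 11 of 12 were lower (68320.7 to 82199.8 in control glands, 3760.9 to 16947.6 in tumors), with a median log2 fold change of -3.35, and for endothelium 10 of 12 (11160.5 to 14577.6 against 1682.9 to 4696.5), with -2.33. Of 11 macrophage and myeloid markers tested 4 were lower (24891 to 41262.4 against 8436.8 to 15550.3), and of 3 lymphocyte markers tested, out of 9, 2 were lower (401 to 6120.1 against 129.4 to 227.7). No skeletal muscle marker passed limma's adjusted threshold, and 3 of 10 were lower at an unadjusted p under 0.05. Their median log2 fold change was nevertheless -3.68, and all 10 lay between -4.92 and -2.87. The arrays of each group were spread widely, with muscle sums of 7679.7 to 232518 in control glands against 670.5 to 41808.2 in tumors. Of 7 brown adipocyte markers 4 were lower (5263.7 to 39221.8 against 1721.6 to 2035.7), with control gland 1 the highest, the gland in which the 6 members named above were highest. *Ucp1*, the defining gene of brown fat, gave 15556.6, 3082 and 522.9 in control glands and was below 50 in every tumor. The part of these cells in the members' falls was not tested.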

How the data were processed

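RNA of 3 acinar mammary tumors and 3 control glands was measured on 6 arrays, 1 per sample, grouped by the labels, which call the samples biological replicates. No source used here says whether each came from its own animal, so the p-values may in part reflect spread within animals. The deposited intensity values are linear MAS5 signals that the authors made with Affymetrix software and scaled to a target of 500 on each array. The detection calls were not used. Array number limits the precision. The median signal was 132.7 to 170.7 in control glands and 124.4 to 138.3 in tumors.

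Of 45101 probe sets, 64 controls were left out. The platform annotation gave 1 symbol to 34945 of the rest, several to 932 and none used here to 9160. Genes were read through the first kind alone. Signals below 50 were set to 50, log2 was taken, and probe sets with at least 100 on 3 or more arrays were kept, 22492 in all. Per gene the brightest was used, and fits that leave out an array keep these probe sets. Fold changes against values set to 50 understate a fall. Where all tumors were below 50 the fold is written as at least that value.

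The groups were compared in R 4.3.3 with limma 3.58.1 (functions lmFit and eBayes), 2-sided, with Benjamini-Hochberg adjustment over 12518 genes. Simulated data were used to test the scripts. A 2-sided exact permutation test of 3 against 3 cannot go below 0.1 and was not used. The study's own t-test, called the methods' t-test, was run on the linear signals without assuming equal variances, with limits of 4.5 on the statistic and 2 on the ratio of means. As alternatives, the floor was set to 16 or 100 or replaced by adding 50 before the log, arrays were quantile normalized or given equal medians, the filter was dropped or raised to 200, limma was given a variance trend or a replicate block, 1 array at a time was left out, probe sets were averaged or those prone to cross-hybridize removed, and a 2-fold limit was added. Leaving out control replicate 2 and tumor replicate 1 together was added after seeing the data.

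The members and lists were chosen with earlier results of these data known. Every member is named. Values of every array are given for the leading adipocyte genes, for the 2 largest falls and the smallest fall of each subgroup and for members not called, and for further members chosen after their values were seen. From the 2 lists of other fat genes, up to 4 called genes with the largest change and the 2 furthest from passing are named, and marker lists, to which the same rule applied, are given as counts and sums. Promoters came from RefSeq (GRCm38.p6) and were searched with Python 3.11.15. Figures were drawn with matplotlib 3.10.9.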

Additional observations from a re-analysis of the deposited data

How the results depend on the processing

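The 30 members gave 569 values under 19 limma alternatives, of which 563 kept their call, 5 lost it and 1 gained it, and none changed sign. *Mgll* lost its call with no filter (adjusted p = 0.058), with the replicate block (0.0533), without tumor replicate 2 (0.0516) and without control replicate 2 and tumor replicate 1 (0.0515), *Fabp4* lost it with no filter (0.073), and *Lpin1* gained it without tumor replicate 3. The count of lower members was 27 to 30 under these, 28 to 30 with 1 array left out and 28 with the replicate block, and the count of higher members was 0. Deviations of same-numbered samples from their group means had correlations of -0.22, 0.02 and 0.04, and those of differently numbered samples -0.16 to 0.13. With 3 arrays per group these values cannot decide whether the numbers pair the samples. The block moved the genes called from 2098 lower and 2045 higher to 1860 and 1630. The median of the members lay between -5.37 and -4.82, and between -5.37 and -5.02 with 1 array left out. Equal array medians shifted the median of all genes from 0.07 to 0.31 and the lower share of called genes from 50.6% to 35.5%, with 29 members lower at a median of -4.95. The methods' t-test called 23 members lower at its threshold, where 23 also had an unadjusted p under 0.05, and 0 after Benjamini-Hochberg adjustment, where 73 genes of 12518 were lower; *Lep*, *Hp*, *Mgll*, *Npr3*, *Sncg* and *Gpd1* were lost at its threshold. The counts over all genes went down to 1507 lower and 1263 higher without control replicate 3, and with no filter to 1564 and 1703.

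Of 24 other genes named, 19 kept their direction in all settings. Over all settings 36 of their calls were lost and 1, that of *Cebpb*, was gained. At the threshold of the methods' t-test *Nnat*, *Cidea*, *Zfp423*, *Abhd5*, *G0s2*, *Slc27a4*, *Gata2*, *Srebf1* and *Stat5a* lost theirs. The sign turned for 5 that had not passed: *Med1* was at -0.0098 with quantile normalization, -0.046 without control replicate 2 and tumor replicate 1, -0.0022 by the methods' t-test and -0.36 to 0.47 with 1 array left out, and *Plin2* was at -0.048 with quantile normalization and -0.17 to 0.56 with 1 array left out. With 1 array left out, *Acsl5* ran from -0.037 to 0.29, *Egr2* from -0.072 to 0.32 and *Agpat1* from -0.042 to 0.15. The cause was not tested. *G0s2* also lost its call with a floor of 16 (adjusted p = 0.0548). Tumor signals near 50 limit how large a fall can be measured, since 10 members had at least 1 tumor below it.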
